A study of Mus musculus with 8 samples.

Results

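Spermine was compared with phosphate-buffered saline (PBS) in mouse bone marrow derived macrophages that had received no interferon-β (IFN-β), in 4 of the 8 libraries of the series. The comparison covered every gene whose abundance reached 1 FPKM (fragments per kilobase of transcript, scaled to library size) in at least 2 of the 8 libraries, which left 11421 of the 54532 genes in the table. The labels give 4 groups of 2 libraries: PBS at 0 h, spermine at 0 h, PBS at 3 h of IFN-β and spermine at 3 h of IFN-β. They name bone marrow derived macrophages for all 8 libraries and give no genotype, strain or age; the design text names DMSO as the vehicle where the labels name PBS, and the extraction protocol names blood. The sources used here give neither the dose nor the length of exposure to spermine, and do not say whether libraries numbered 1 and 2 came from separate animals, so the tests measure the spread between libraries only. The 4 libraries at 3 h of IFN-β were used here for the same contrast in a second pair of groups, and for a shared estimate of the spread.

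Spermine is the longest of the common polyamines, small cations that bind nucleic acids and are made from ornithine and decarboxylated S-adenosylmethionine. Cells hold polyamine levels within narrow limits: a rise lowers the synthetic enzymes through antizyme proteins and raises the acetylating and oxidising enzymes of breakdown. Macrophages differentiated in culture take up iron, lipid and dead cells, keep a large lysosomal compartment, and carry receptors that steer their movement and their alarm responses. The series was set up to profile genes stimulated by interferon, and the comparison without IFN-β shows what spermine alone went with.

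The libraries held 15723437 to 17744844 reads assigned to genes. All 10 macrophage markers checked were expressed, with summed levels of 13310 and 12240 FPKM with PBS and 14060 and 13350 FPKM with spermine, most of it Lyz2. With FPKM as deposited, 3 of these 10 markers rose (Adgre1, Cd14 and Cd68) and 2 fell. The largest rise on the log2 scale was 0.33, no larger than the shift by rescaling given below. Mertk fell from 15.2 and 13.5 FPKM to 6.46 and 5.62 FPKM and Fcgr1 from 53.7 and 50.9 FPKM to 38.4 and 32.9 FPKM. Summed T-cell markers were 14.01 and 12.9 FPKM with PBS and 23.6 and 22.3 FPKM with spermine, with 1 of the 3 tested T-cell markers called higher, while Cd3e, Cd3d, Cd3g and Trac stood at 0 in all 4 libraries. Of 10 neutrophil markers 3 were tested and 1 rose, with sums of 6.14 and 6.08 FPKM with PBS and 9.86 and 7.28 FPKM with spermine, and Ly6g and Retnlg stood at 0. B-cell, dendritic and endothelial markers summed to under 6 FPKM in each library, with 1 member called higher in each list, and the B-cell factor Pax5 and the globin genes stood at 0. The part of these cells in the results was not tested, and in such bulk libraries fewer cells of a type and less RNA per cell cannot be told apart. Turning the deposited FPKM back into reads showed that the authors' scaling differed between the groups: the library size implied by the FPKM values was 129% and 128% of the reads in the table with PBS, and 105% and 106% with spermine. With FPKM as deposited the median change of all genes was 0.01 on the log2 scale. Rescaling to TPM, in which the length-scaled values of each library sum to the same total, moved all changes by a median of -0.34. The median change of all genes was then -0.30, against which list medians after TPM rescaling are to be read. Mean summed FPKM was 250915 with PBS and 319089 with spermine. The 10 genes of the largest gain held 42.3% of the net gain, with Hmox1 at 15.4% and Fth1 at 12.2%. TPM counts below thus depend in part on a few abundant transcripts, and which scaling is nearer the RNA content was not tested. The marker sums above were not rescaled. Group medians below are to be read against the median of all genes. Where a pair of counts is given as after TPM rescaling or quantile normalization, the rises come first and the falls second.

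Of the 11421 genes, 4706 (41.2%) passed limma's test at a Benjamini-Hochberg adjusted p of 0.05, 2510 (22.0%) higher and 2196 (19.2%) lower with spermine. A change is given throughout as the difference of mean log2(FPKM + 1), spermine minus PBS, ± its standard error from limma with 2 libraries per group. By that measure 493 genes rose by at least 1 and 257 fell by at least 1. After TPM rescaling 5930 genes passed, 1187 higher and 4743 lower, so that rising genes made up 20.0% of the calls in place of 53.3%. Without the second PBS library at 0 h 2999 genes passed, and the lower genes counted 1325 without it and 1367 without the first. The PBS and spermine libraries did not overlap for 70.9% of all genes, so that lack of overlap alone marks nothing out. Rises and falls counted in the lists below with FPKM as deposited are to be read against the 22.0% and 19.2% of all genes.

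**Figure D1:**
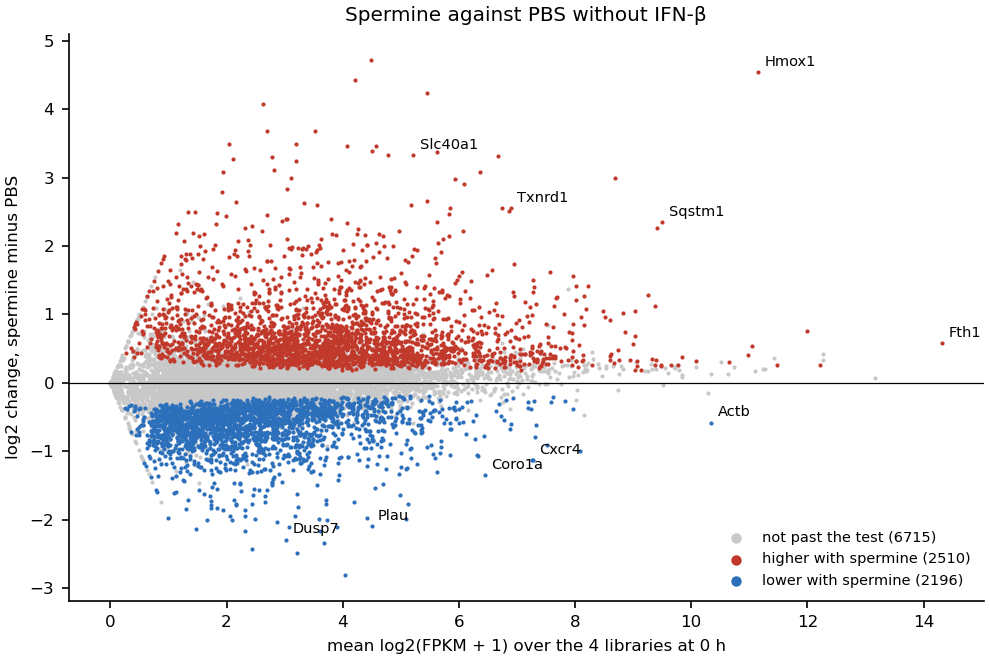
Log2 change with spermine at 0 h (vertical axis, difference of mean log2(FPKM + 1)) against mean abundance over the 4 libraries (horizontal axis, log2(FPKM + 1)) for each of the 11421 genes. Grey points did not pass limma's test, red points rose and blue points fell; the labelled genes are named in the text, and Hmox1 and Fth1 lie at the far right.

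The genes of polyamine supply moved in both directions. Ornithine decarboxylase, Odc1, which makes putrescine, the precursor of spermine, was read at 17.0 and 17.9 FPKM with PBS and 45.1 and 43.5 FPKM with spermine. Both spermine libraries stood above both PBS libraries, a rise of 1.30 ± 0.07 (adjusted p = 4.1e-05). Azin1, the antizyme inhibitor that shields ornithine decarboxylase, rose alongside from 23.0 and 24.1 FPKM to 52.0 and 46.6 FPKM (1.03 ± 0.09, adjusted p = 2.9e-04). In the opposite direction, Amd1, which makes the decarboxylated S-adenosylmethionine that donates the aminopropyl groups, stood at 19.1 and 17.3 FPKM with PBS and 8.68 and 7.37 FPKM with spermine and fell by 1.09 ± 0.13 (adjusted p = 8.9e-04). Its near-identical copy Amd2 can share its reads. The antizyme gene Oaz2 rose by 0.39 ± 0.09 (adjusted p = 0.014, but 0.085 without the second PBS library, 0.066 without the second spermine library and 0.53 after TPM rescaling), whereas the main antizyme, Oaz1, was 100.2 and 131 FPKM with PBS and 136 and 193 FPKM with spermine and did not pass the test (0.50 ± 0.23, adjusted p = 0.13). The aminopropyl transferases that complete the pathway did not pass either: spermidine synthase, Srm, had a difference of -0.13 ± 0.12 (adjusted p = 0.43), and spermine synthase, Sms, one of 0.12 ± 0.10 (adjusted p = 0.39). After TPM rescaling Srm passed (-0.47, adjusted p = 0.023). The antizyme inhibitor Azin2, and Arg1, Arg2, Mat2a, Mtap and Ahcy, which feed or salvage the precursors, also missed the threshold, with differences between -0.30 (Mtap) and 0.11 (Arg1), of which Mtap passed after TPM rescaling (-0.68, adjusted p = 0.014). Over the 16 genes of polyamine synthesis and its control, 13 were tested, 3 rose and 1 fell (2 and 4 after TPM rescaling; 30.8% called, below the 41.2% of all genes), with a median change of 0.04, or -0.26 after TPM rescaling; Amd2, Oaz3 and Agmat were too low to test.

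Of the 10 tested genes of polyamine breakdown and movement 6 passed (60.0%), 4 up and 2 down (3 and 3 after TPM rescaling). Sat1, the acetyltransferase that marks spermine and spermidine for export and oxidation, was 101 and 96.4 FPKM with PBS and 161 and 154 FPKM with spermine (0.67 ± 0.07, adjusted p = 4.2e-04). Smox, which oxidises spermine directly to spermidine with release of hydrogen peroxide, was 12.5 and 16.1 FPKM with PBS and 25.3 and 31.4 FPKM with spermine (0.94 ± 0.18, adjusted p = 0.0067). Both stood higher with spermine in each library. Paox, which oxidises acetylated polyamines in peroxisomes, instead fell by 0.69 ± 0.11 from 2.60 and 3.03 FPKM to 1.35 and 1.37 FPKM (adjusted p = 0.003). Among transporters, the lysosomal polyamine exporter Atp13a2 fell by 0.93 ± 0.19, from 62.2 and 79.5 FPKM to 32.3 and 40.9 FPKM (adjusted p = 0.0081, or 0.054 without the second PBS library). Its endosomal relative Atp13a3, which serves polyamine uptake, rose by 0.51 ± 0.09, from 11.5 and 11.04 FPKM to 16.9 and 16.1 FPKM (adjusted p = 0.004, or 0.12 after TPM rescaling). The heavy chain Slc3a2, shared by several amino acid exchangers and linked to polyamine export, rose by 1.40 ± 0.09, from 93.2 and 97.5 FPKM to 236 and 273 FPKM (adjusted p = 8.0e-05). The hypusine branch, in which spermidine is attached to the translation factor eIF5A, did not pass: Eif5a was 95.5 and 108 FPKM with PBS and 116 and 130.1 FPKM with spermine (adjusted p = 0.076, or 0.038 by limma voom on rebuilt reads, with the sign turned to -0.076 after TPM rescaling), and Eif5a2, Dhps and Dohh had differences of -0.26, 0.11 and 0.10, with Eif5a2 at -0.63 (adjusted p = 0.0075) after TPM rescaling. Sat2 and Slc18b1 were too low to test. The median over the 10 was 0.19, or -0.15 after TPM rescaling.

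**Figure D2:**
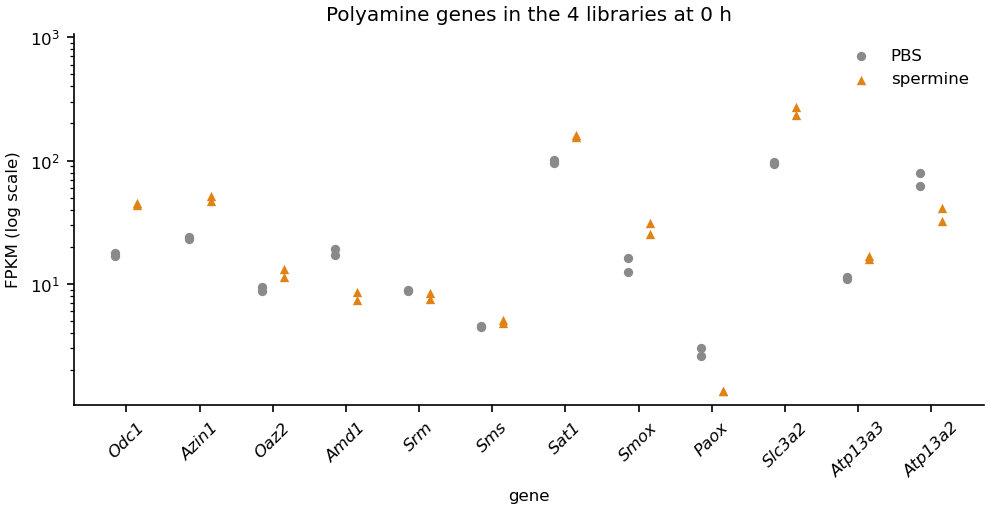
Abundance of 12 polyamine genes (vertical axis, FPKM, log scale) in each of the 4 libraries at 0 h, grey circles for PBS and orange triangles for spermine. Odc1, Azin1, Sat1, Smox, Slc3a2, Atp13a3 and Oaz2 lie higher with spermine and Amd1, Paox and Atp13a2 lower, while the points of Srm and Sms are close together.

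In the neighbouring use of arginine, 5 of 14 tested genes rose and 4 fell (4 and 4 after TPM rescaling). Ass1, which rebuilds arginine from citrulline, rose by 1.37 ± 0.17 (3.09 and 3.76 FPKM with PBS and 9.50 and 11.4 FPKM with spermine). Gch1, which opens the synthesis of tetrahydrobiopterin, the cofactor of nitric oxide synthase, rose by 0.97 ± 0.13, and Pts, the next enzyme of that synthesis, fell by 0.98 ± 0.11. The arginine transporter Slc7a1 rose by 0.78 ± 0.10 while its relative Slc7a2 fell by 0.65 ± 0.09. The falls counted 2 without either PBS library.

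Iron and haem genes held the 2 largest gains in FPKM of all genes tested with FPKM as deposited, Hmox1 and Fth1. Macrophages break down the haem of engulfed red cells with haem oxygenase, store the iron in ferritin and return it to the blood through ferroportin. Haem oxygenase, Hmox1, occupied 0.111% and 0.1004% of all reads with PBS and 2.08% and 1.99% with spermine, against 1.82% and 1.90% and then 2.19% and 2.39% for Fth1, the ferritin heavy chain. The ferroportin gene Slc40a1 stood at 11.4 and 10.1 FPKM with PBS and 124 and 109.7 FPKM with spermine (3.33 ± 0.12, adjusted p = 8.5e-06). The haem importer Slc48a1, which moves haem out of the phagolysosome, rose by 1.62 ± 0.07, from 105 and 109 FPKM to 317 and 346 FPKM. Blvrb, a biliverdin reductase, rose by 1.17 ± 0.13, from 40.2 and 44.8 FPKM to 86.1 and 108 FPKM. The light chain of ferritin, Ftl1, whose reads near-identical copies can share, was 2985 and 3262 FPKM with PBS and 4649 and 6042 FPKM with spermine (0.76 ± 0.14, adjusted p = 0.0054), a change that was -0.020 after quantile normalization and had an adjusted p of 0.092 without the filter on low values. For Slc40a1, Slc48a1, Blvrb and Ftl1 every spermine library stood above every PBS library. Slc40a1, Slc48a1 and Blvrb were named among genes picked for such lack of overlap, so for them it follows from the choice. Ncoa4, the receptor that delivers ferritin to autophagy for iron release, fell by 0.80 ± 0.11, from 8.76 and 8.81 FPKM to 5.00 and 4.23 FPKM.

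Splitting the list by role, a split made after the values were seen, separated breakdown from synthesis. Of 8 genes of haem breakdown, iron storage and export, 7 rose and 1 fell (6 and 1 after TPM rescaling, 4 and 1 after quantile normalization), with a median of 0.96. Of the 8 enzymes of haem synthesis, 4 fell and 2 rose (1 and 6 after TPM rescaling), with a median of -0.33. The falls included Uros (-0.63 ± 0.12) and Ppox (-0.61 ± 0.08), which act at a middle and a late step. Alas1, its first and rate-limiting enzyme, rose by 0.94 ± 0.07 and Fech, which inserts the iron, by 0.48 ± 0.06, or 0.15 (adjusted p = 0.13) after TPM rescaling; both are named after their values were seen because they were the exceptions. All 26 tested iron and haem genes together counted 10 up and 8 down (8 and 11 after TPM rescaling), 5 down without either PBS library.

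Glutathione, thioredoxin and NADPH genes held many of the large rises. These systems keep thiols reduced and are textbook targets of the transcription factor NRF2, which binds antioxidant response elements when its repressor is disabled. In the glutathione list, 16 of 27 tested genes rose and 1 fell (median 0.42), or 13 and 6 after TPM rescaling (median 0.08), and 12 of the 16 that rose in FPKM as deposited rose by at least 1. Glutathione synthetase, Gss, was 2.07 and 2.06 FPKM with PBS and 20.6 and 21.1 FPKM with spermine (2.83 ± 0.08, adjusted p = 3.4e-06). Gsr, which returns oxidised glutathione to its reduced form, was 21.9 and 23.6 FPKM with PBS and 132 and 147 FPKM with spermine (2.56 ± 0.08). The peroxidase Gpx1 was the member that fell by the test; it fell by 0.37 ± 0.06, from 168 and 162 FPKM to 130.3 and 125 FPKM. Among thioredoxin and NADPH genes, 23 of 37 rose and 3 fell (median 0.68), or 21 and 9 after TPM rescaling. Thioredoxin reductase, Txnrd1, was 48.5 and 47.7 FPKM with PBS and 288 and 288 FPKM with spermine (2.56 ± 0.06, adjusted p = 1.8e-06). The peroxiredoxins Prdx6 and Prdx1 rose by 2.98 ± 0.07 and 2.27 ± 0.17, Prdx1 from 353 and 272 FPKM to 1637 and 1367 FPKM. The falls were Sesn1, Rpia and Txnip, of which Txnip, the inhibitor of thioredoxin, went from 72.5 and 71.6 FPKM to 36.3 and 33.7 FPKM (-1.02 ± 0.06).

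NRF2's partners and repressors moved too, 10 of 14 tested up and 1 down (7 and 2 after TPM rescaling). The small Maf proteins pair with NRF2 on DNA and can also repress as pairs of their own. Maff was 1.11 and 1.36 FPKM with PBS and 7.26 and 9.73 FPKM with spermine (2.08 ± 0.14). Mafk and Mafg rose by 1.46 ± 0.11 and 1.00 ± 0.07. Sqstm1, the autophagy adaptor that sequesters the NRF2 repressor, was 304 and 338 FPKM with PBS and 1535 and 1754 FPKM with spermine (2.35 ± 0.10, adjusted p = 1.4e-05). These 4 genes were named among those whose PBS and spermine libraries did not overlap, so their separation by library follows from the choice.

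The 250 bases upstream of the RefSeq start (assembly GRCm38.p6) were searched on both strands for known regulatory motifs. The search covered the leading members of the redox, zinc and ATF4 lists that had a window. No window was at hand for Gclc, Gsr, Prdx6, Slc39a4 and Slc39a14, which were not searched. The 5 windows below, picked after the matches were seen, show the letters that leading members of each list carry. The motifs were the antioxidant response element core TGACNNNGC, the AP-1 site TGANTCA, the C/EBP-ATF element TGATGNAA, the metal response element core TGCGCNC or TGCACNC and the paired heat shock motif GAANNTTC. An antioxidant core with TCA in its middle is also an AP-1 site, so these 2 patterns can overlap. Sequences are written 5′ to 3′ on the gene's strand, and capitals mark the motif named for each.
Prdx1, chr4:116685349-116685598, plus strand, antioxidant core on the opposite strand beginning 133 bases before the start and overlapping an AP-1 site: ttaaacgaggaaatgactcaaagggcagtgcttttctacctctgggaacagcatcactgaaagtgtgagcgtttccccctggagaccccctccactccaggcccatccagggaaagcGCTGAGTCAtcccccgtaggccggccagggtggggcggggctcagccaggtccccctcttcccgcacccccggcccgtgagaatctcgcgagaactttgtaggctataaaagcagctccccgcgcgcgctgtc
Srxn1, chr2:152105274-152105523, plus strand, AP-1 sites beginning 102 and 45 bases before the start: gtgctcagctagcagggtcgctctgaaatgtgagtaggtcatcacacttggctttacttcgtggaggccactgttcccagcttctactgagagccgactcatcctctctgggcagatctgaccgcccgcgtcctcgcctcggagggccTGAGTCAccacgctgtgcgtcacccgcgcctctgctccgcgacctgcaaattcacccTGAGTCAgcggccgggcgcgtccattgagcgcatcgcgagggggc
Slc7a11, chr3:50443614-50443863, minus strand, C/EBP-ATF elements beginning 66 and 47 bases before the start, the second on the opposite strand: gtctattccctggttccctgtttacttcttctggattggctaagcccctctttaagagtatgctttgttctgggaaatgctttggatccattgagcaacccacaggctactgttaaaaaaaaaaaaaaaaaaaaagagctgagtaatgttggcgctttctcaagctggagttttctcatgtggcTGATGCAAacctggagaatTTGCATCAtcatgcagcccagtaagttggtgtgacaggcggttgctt
Chac1, chr2:119350992-119351241, plus strand, C/EBP-ATF element on the opposite strand beginning 193 bases before the start: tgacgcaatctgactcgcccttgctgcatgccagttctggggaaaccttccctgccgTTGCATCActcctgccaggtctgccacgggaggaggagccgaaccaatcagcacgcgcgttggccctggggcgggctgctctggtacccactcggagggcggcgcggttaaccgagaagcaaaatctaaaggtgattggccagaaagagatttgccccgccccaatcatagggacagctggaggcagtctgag
Slc30a1, chr1:191906531-191906780, plus strand, metal response core on the opposite strand beginning 43 bases before the start: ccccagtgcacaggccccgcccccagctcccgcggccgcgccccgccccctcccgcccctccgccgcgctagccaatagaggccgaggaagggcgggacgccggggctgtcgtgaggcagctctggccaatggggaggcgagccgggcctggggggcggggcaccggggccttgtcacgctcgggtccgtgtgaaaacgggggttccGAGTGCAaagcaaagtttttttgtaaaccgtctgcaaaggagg
The Slc7a11, Gss and Srxn1 windows hold no match to the antioxidant core, and Txnrd1 has windows with and without it. Those of Ppp1r15a, Ddit4 and Atf4 hold none to the C/EBP-ATF element. A missing match says only that these letters are not in these windows.

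Across promoters, the antioxidant core was in 10.2% of all 32851 windows. For shares of genes, only the first listed window of each gene was counted. A gene with the core in a later window, such as Txnrd1, thus counted as without it. By that count the core was in 12.5% of the 8087 tested genes that could be matched by symbol. It was in 53 of 329 matched genes that rose by at least 1 (16.1%), and in 13 of 189 that fell by at least 1 (6.88%). The AP-1 site was in 6.75% of windows, 4.53% of the tested genes, 6.08% of the strong rises and 4.76% of the strong falls. In the same 4 sets the C/EBP-ATF element was in 3.45%, 1.97%, 2.43% and 2.12%, the metal response core in 21.4%, 30.0%, 30.7% and 32.8%, and the heat shock motif in 6.69%, 4.80%, 5.47% and 5.29%. These shares are a description with no test, and a match is not a site of binding.

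Of 20 tested metallothionein and zinc transporter genes, 6 rose and 3 fell (3 and 7 after TPM rescaling), and 3 rose when the first PBS, the second PBS or the first spermine library was left out. The called share of this list with FPKM as deposited was little above the 41.2% of all genes. Its median change was 0.06, against 0.01 for all genes. Slc30a1, which exports zinc from the cell, was 3.63 and 4.05 FPKM with PBS and 14.3 and 12.9 FPKM with spermine (1.59 ± 0.08, adjusted p = 2.4e-05). The importers Slc39a4 and Slc39a14 rose by 0.83 ± 0.14 and 0.72 ± 0.09, while Slc39a13 and Slc39a1 fell by 0.81 ± 0.12 and fell by 0.40 ± 0.07.

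Regulators of the integrated stress response, in which phosphorylation of eIF2α favours translation of ATF4, rose at 10 of 20 tested genes and fell at 2 (median 0.65), or 9 and 5 after TPM rescaling. Of these genes 0 fell without either PBS library and 1 without either spermine library. Chac1, a glutathione-degrading enzyme and ATF4 target, was 0.347 and 0.364 FPKM with PBS and 2.58 and 3.69 FPKM with spermine (1.60 ± 0.18). Among amino acid synthesis and one-carbon enzymes, 7 of 17 rose and 1 fell (4 and 4 after TPM rescaling), with 0 falling without the second PBS or the first spermine library. The mitochondrial folate enzyme Mthfd2 was 6.52 and 5.75 FPKM with PBS and 16.2 and 15.6 FPKM with spermine (1.24 ± 0.09), glutamine synthetase, Glul, rose by 1.07 ± 0.07 and asparagine synthetase, Asns, by 0.80 ± 0.11. Amino acid transporters counted 9 up and 6 down of 20 (7 and 11 after TPM rescaling): the glycine transporter Slc6a9 rose from 0.348 and 0.454 FPKM to 3.43 and 4.61 FPKM (1.83 ± 0.15) and Slc38a2 by 1.18 ± 0.11, while the lysosomal transporter Slc36a1 fell by 0.94 ± 0.08. The falls among transporters counted 3 without either PBS library. Of the 20 cytosolic tRNA synthetases, 7 rose and 1 fell (4 and 8 after TPM rescaling), led by Eprs (1.07 ± 0.09) and Rars (0.87 ± 0.13). The called share of the synthetases, 40.0%, was near the 41.2% of all genes, and that of the amino acid synthesis and one-carbon enzymes was 47.1%.

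Chaperone genes of the endoplasmic reticulum and cytosol moved mostly one way with FPKM as deposited. In the unfolded protein response list 21 of 30 tested genes rose and 1 fell (median 0.35), with 13 rising when the second PBS library was left out and 0 falling without any 1 of the 4 libraries. These counts were 9 and 4 after TPM rescaling (median 0.04) and 11 and 2 after quantile normalization. Dnajb9, an ER co-chaperone, was 11.96 and 11.02 FPKM with PBS and 34.4 and 31.7 FPKM with spermine (1.45 ± 0.10). The ER oxidase Ero1l rose by 1.28 ± 0.09, the major ER chaperone Hspa5 from 78.8 and 77.8 FPKM to 196 and 183 FPKM (1.26 ± 0.07), and the transcription factor Xbp1 by 0.75 ± 0.06. Of 27 heat shock genes 19 rose and 0 fell (median 0.58), or 15 and 2 after TPM rescaling. Besides the inducible Hsp70 genes, the co-chaperone Dnajb4 was 5.32 and 4.69 FPKM with PBS and 26.0 and 23.5 FPKM with spermine (2.10 ± 0.09).

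Proteasome genes rose as a near complete set with FPKM as deposited. The constitutive proteasome has a barrel of alpha and beta subunits and a regulatory cap; in immune cells 3 beta subunits can be exchanged for interferon-inducible immunoproteasome subunits. Of the 34 constitutive subunits, all tested, 30 rose and 0 fell, with a median of 0.56 and changes from -0.07 to 1.40. After TPM rescaling the median was 0.22 and 16 rose. The cap subunit Psmd11 was 8.76 and 8.56 FPKM with PBS and 24.4 and 24.7 FPKM with spermine (1.40 ± 0.07, adjusted p = 2.4e-05). The alpha subunit Psma5 rose by 1.30 ± 0.13, and the cap subunits Psmd5 and Psmd14, the latter a deubiquitinase, by 1.15 ± 0.10 and 1.12 ± 0.15. The immunoproteasome subunits did not follow: Psmb9 was 6.10 and 6.50 FPKM with PBS and 2.72 and 2.25 FPKM with spermine and fell by 1.07 ± 0.11 (adjusted p = 5.1e-04). Psmb8 and Psmb10, named after their values were seen, had differences of -0.38 ± 0.17 (adjusted p = 0.12) and -0.13 ± 0.12 (adjusted p = 0.44), which passed after TPM rescaling (adjusted p = 0.011 and 0.016).

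**Figure D3:**
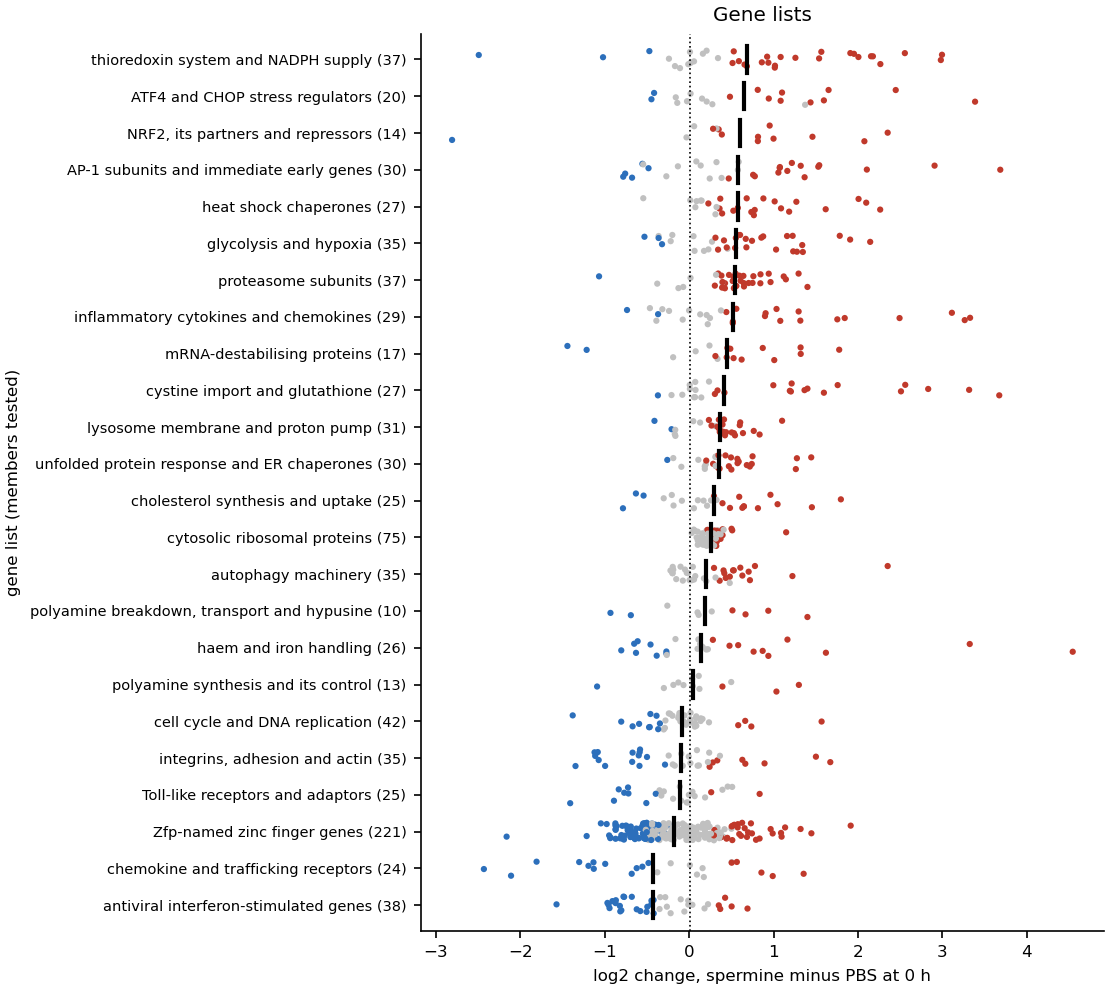
Log2 changes with spermine at 0 h of the tested members of 24 gene lists (horizontal axis, difference of mean log2(FPKM + 1)), 1 point per gene, red where limma's test was passed upward, blue where passed downward and grey otherwise; the black bar is the list's median and the dotted line the median of all genes. Proteasome, thioredoxin and heat shock genes lie mostly to the right, and chemokine receptors and antiviral genes mostly to the left.

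Lysosome membrane and autophagy genes rose far more often than they fell with FPKM as deposited. After TPM rescaling 6 rose and 4 fell among 31 lysosome membrane and proton pump genes and 6 rose and 13 fell among 35 autophagy genes. The vacuolar proton pump acidifies lysosomes, and of its 16 subunit genes 12 rose and 1 fell (median 0.38, or 0.05 after TPM rescaling), against 4 and 2 after either scaling. The 1 fall lost its call without any 1 of the 4 libraries. Atp6v1h was 7.88 and 7.46 FPKM with PBS and 19.1 and 16.2 FPKM with spermine (1.10 ± 0.11), Atp6v1c1 rose by 0.84 ± 0.07 and Atp6v1a by 0.64 ± 0.07. Over the whole list of 31 membrane and pump genes 22 rose and 2 fell (9 and 3 after quantile normalization), with 14 rising when the first PBS library was left out and 1 falling without any 1 of the 4 libraries. Lysosomal hydrolases counted 10 of 38 up and 6 down (4 and 18 after TPM rescaling, 3 and 15 after quantile normalization), with rises counting 4 without the first PBS library, 5 without the second and 5 without the first spermine library, and falls counting 3 without either PBS library. The called share of the hydrolases, 42.1%, was near the 41.2% of all genes. Among the hydrolases, the cholesteryl ester hydrolase Lipa went from 374 and 352 FPKM to 797 and 713 FPKM (1.05 ± 0.09). The heparan sulphatase Sgsh and the dipeptidase Ctsc fell by 1.10 ± 0.10 and fell by 0.81 ± 0.10. Of 35 autophagy genes 15 rose and 0 fell, with a median of 0.20, or -0.13 after TPM rescaling (all genes -0.30). Their called share, 42.9%, was near the 41.2% of all genes. Gabarapl1, which coats autophagosome membranes, was 41.7 and 41.2 FPKM with PBS and 99.8 and 96.6 FPKM with spermine (1.22 ± 0.06), and its relative Map1lc3b rose by 0.72 ± 0.06.

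Genes of cholesterol synthesis and of glucose uptake and use held more rises than falls with FPKM as deposited. After TPM rescaling 8 rose and 8 fell in the cholesterol list, and 17 rose and 6 fell in the glycolysis and hypoxia list. Of 25 genes of cholesterol synthesis and uptake 12 rose and 3 fell (median 0.29, or -0.02 after TPM rescaling). Insig1, the ER anchor of the sterol-sensing complex, was 34.5 and 37.0 FPKM with PBS and 99.2 and 100.2 FPKM with spermine (1.45 ± 0.06, adjusted p = 1.5e-05), and the demethylase Cyp51 rose by 1.05 ± 0.06. The falls included Dhcr7 (-0.78 ± 0.13) and Fdps (-0.63 ± 0.11), enzymes of the same pathway. On the lipid storage and release side, 6 of 15 tested genes rose and 3 fell (median 0.20), or 3 and 4 after TPM rescaling (median -0.14). Of the rises only that of the droplet coat protein Plin2 is given here (0.85 ± 0.06). Lipoprotein lipase, Lpl, fell from 113 and 118 FPKM to 59.3 and 49.98 FPKM (-1.07 ± 0.12). The other falls were the oxysterol receptor Nr1h3 (-0.71 ± 0.08) and the exporter Abcg1 (-0.50 ± 0.08). Of 35 glycolysis and hypoxia genes 23 rose and 3 fell (median 0.55), or 15 and 2 after quantile normalization, and 1 fell without either PBS library or the second spermine library. The glucose transporter Slc2a1 was 24.4 and 27.9 FPKM with PBS and 108 and 130.5 FPKM with spermine (2.15 ± 0.10, adjusted p = 2.5e-05). Pfkfb3, which makes the activator of phosphofructokinase, was 5.00 and 4.97 FPKM with PBS and 21.9 and 21.1 FPKM with spermine (1.91 ± 0.06). Gapdh is left aside, because near-identical pseudogene copies can share its reads. Fatty acid genes counted 5 of 23 up and 9 down (2 and 11 after TPM rescaling), with 5 falls without either PBS library and 3 rises without the first. Ppard rose by 1.11 ± 0.11 and the desaturase Scd2 fell by 0.93 ± 0.09.

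Early response genes and their brakes moved in mixed directions. Of 30 AP-1 and immediate early genes 15 rose and 5 fell (14 and 8 after TPM rescaling). Ier3 was 24.4 and 23.5 FPKM with PBS and 165 and 210.1 FPKM with spermine (2.91 ± 0.11), Csrnp1 rose by 2.11 ± 0.13 and the antiproliferative Btg2 by 1.54 ± 0.06. Batf2 fell by 0.55 ± 0.10, and 3 of the list fell without the first spermine library. MAP kinase phosphatases and Sprouty proteins, which shut down kinase signalling, had 15 of 17 tested genes called (88.2%), 9 up and 6 down (7 and 7 after TPM rescaling). Dusp1, which acts in the nucleus on p38 and JNK, was 24.9 and 30.0 FPKM with PBS and 215 and 266 FPKM with spermine (3.08 ± 0.16, adjusted p = 3.0e-05). Dusp5 and Dusp4 rose by 2.03 ± 0.14 and 1.94 ± 0.13. Dusp7, a cytoplasmic ERK phosphatase, went the other way, from 16.4 and 17.7 FPKM to 2.52 and 2.85 FPKM (-2.29 ± 0.18, adjusted p = 1.4e-04), together with Dusp6 (-0.90 ± 0.10), Dusp22 (-0.97 ± 0.11) and Spry2 (-0.83 ± 0.08). Proteins that destabilise inflammatory mRNAs rose at 11 of 17 genes and fell at 2 (6 and 3 after TPM rescaling). Tob1, which recruits the deadenylase, was 10.8 and 10.0 FPKM with PBS and 36.3 and 40.1 FPKM with spermine (1.78 ± 0.10). Zfp36, which binds AU-rich elements, rose by 1.32 ± 0.09. Its relative Zfp36l1 fell from 15.2 and 15.4 FPKM to 5.29 and 6.84 FPKM (-1.21 ± 0.12). The endonuclease Zc3h12d fell by 1.44 ± 0.08.

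Among secreted signals, inflammatory cytokines and chemokines rose at 16 of 29 tested genes and fell at 2 (median 0.52), or 12 and 7 after TPM rescaling and 14 and 4 after quantile normalization. Oncostatin M, Osm, an interleukin-6 family cytokine, was 7.53 and 7.82 FPKM with PBS and 82.8 and 89.8 FPKM with spermine (3.33 ± 0.08, adjusted p = 1.8e-06). The neutrophil chemokine Cxcl3 was 0.0999 and 0.0284 FPKM with PBS and 5.20 and 4.79 FPKM with spermine (2.49 ± 0.12). Il18 and Cxcl16 fell by 0.74 ± 0.11 and fell by 0.37 ± 0.06. Growth factors counted 7 up and 7 down of 20 (6 and 9 after TPM rescaling): Vegfa rose from 61.3 and 65.1 FPKM to 126 and 135 FPKM (1.03 ± 0.07), and Pdgfb was 26.7 and 33.5 FPKM with PBS and 5.15 and 7.37 FPKM with spermine (-2.11 ± 0.17, adjusted p = 1.7e-04). Sema4d, Hgf and Angptl4 fell by 1.04 ± 0.06, fell by 0.82 ± 0.13 and fell by 1.21 ± 0.11. In the prostaglandin pathway the phospholipase Pla2g4a, which frees arachidonic acid, was 2.52 and 2.48 FPKM with PBS and 12.3 and 10.0 FPKM with spermine (1.79 ± 0.11) and the cochaperone Ptges3 rose by 1.22 ± 0.16. Ptgr1, a reductase that inactivates prostaglandins and leukotriene B4, was 14.2 and 14.2 FPKM with PBS and 158 and 156 FPKM with spermine (3.38 ± 0.06). The other inactivating enzyme Hpgd fell by 1.77 ± 0.15 and the prostaglandin E receptor Ptger4 fell by 1.27 ± 0.13. Over that list 6 of 20 rose and 4 fell (6 and 10 after TPM rescaling). Coagulation and fibrinolysis genes counted 6 up and 2 down of 15 (4 and 3 after TPM rescaling), with 1 down without the second PBS library. The plasminogen activator gene Plau fell by 2.10 ± 0.12 (41.5 and 50.6 FPKM with PBS and 10.5 and 9.38 FPKM with spermine), whereas its receptor Plaur rose by 1.47 ± 0.11.

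Receptors that guide macrophage movement were lower more often than higher. Of 24 tested chemokine and trafficking receptors 12 fell and 5 rose (median -0.43; 3 and 14 after TPM rescaling), against 19.2% falling among all genes with FPKM as deposited. Gpr183, which senses oxysterol gradients, was 16.3 and 16.6 FPKM with PBS and 2.99 and 3.09 FPKM with spermine (-2.11 ± 0.09, adjusted p = 1.6e-05). Gpr65, a proton sensor, fell by 1.81 ± 0.12 and Gpr34, a lysophospholipid receptor, fell by 1.30 ± 0.17. Cxcr4, the retention receptor of the marrow, was 241 and 216 FPKM with PBS and 108 and 98.8 FPKM with spermine (-1.13 ± 0.09). Ptafr, the receptor of platelet-activating factor, rose by 1.36 ± 0.06 and Ccr1 by 0.99 ± 0.13. Nucleotide receptors had 5 falls and 2 rises among 14 (1 and 9 after TPM rescaling; 1 rise without the first PBS or the first spermine library), with P2rx7, the ATP-gated channel upstream of the inflammasome, at 10.8 and 10.1 FPKM with PBS and 3.33 and 3.00 FPKM with spermine (-1.46 ± 0.08). Fc and complement receptor genes counted 6 falls and 5 rises of 22 with a median of 0.1 (2 and 6 after TPM rescaling). Only falling members of that list are given here. The complement receptors C3ar1, C5ar2 and C5ar1 fell by 0.99 ± 0.13, fell by 1.16 ± 0.12 and fell by 0.62 ± 0.06. C3ar1 went from 405 and 365 FPKM to 212 and 175 FPKM. Toll-like receptor genes counted 8 falls and 2 rises of 25, or 1 and 17 after TPM rescaling and 1 and 12 after quantile normalization. Their called share, 40.0%, was near the 41.2% of all genes. Tlr3 and Tlr1 fell by 0.83 ± 0.13 and fell by 0.77 ± 0.10, and the adaptor Ticam1 rose by 0.84 ± 0.07.

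Of 24 lectin and scavenger receptors 9 rose and 5 fell (3 fell without the second PBS library), whereas 7 rose and 11 fell after TPM rescaling. Clec4n, the dectin that reads fungal mannans, was 27.6 and 19.5 FPKM with PBS and 135 and 130.1 FPKM with spermine (2.46 ± 0.17). The glucan receptor Clec7a rose by 1.29 ± 0.14 and Clec4d by 1.28 ± 0.14. Clec2d fell by 2.03 ± 0.15. In the list of MHC class II and co-stimulators, 6 of 14 rose and 1 fell (1 and 1 after TPM rescaling, 3 and 0 after quantile normalization), with 2 rising without the second PBS library and 0 falling without that or either spermine library. The checkpoint ligand Cd274 was 10.3 and 9.42 FPKM with PBS and 36.2 and 32.4 FPKM with spermine (1.70 ± 0.10, adjusted p = 4.5e-05). Of 36 lineage factors and surface markers 6 rose and 9 fell, or 1 and 19 after TPM rescaling and 1 and 18 after quantile normalization, with 2 up without the first PBS library or 3 up without the second PBS or second spermine library. The called share of these lineage genes, 41.7%, was near the 41.2% of all genes. Maf, a transcription factor of resident macrophages, went from 21.9 and 25.9 FPKM to 7.69 and 8.88 FPKM (-1.42 ± 0.11) and the monocyte receptor Ccr2 fell by 1.19 ± 0.12.

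Adhesion, actin and ion channel genes had several large falls. Of 35 adhesion and actin genes 14 fell and 8 rose (5 and 20 after TPM rescaling), with 5 rising without the first PBS library. Coro1a, a leukocyte actin regulator, was 125 and 153 FPKM with PBS and 49.7 and 58.4 FPKM with spermine (-1.35 ± 0.15, adjusted p = 6.4e-04). The integrin chains Itgav and Itga4 fell by 1.11 ± 0.07 and fell by 1.08 ± 0.12, and the exchange factor Fgd2 fell by 1.12 ± 0.13. Actb, among the most abundant transcripts, went from 1524 and 1654 FPKM to 1073 and 1049 FPKM (-0.58 ± 0.07). Among small GTPases, Rhob was 84.3 and 98.9 FPKM with PBS and 230.1 and 295 FPKM with spermine (1.5 ± 0.17) and Rnd3 rose by 1.67 ± 0.11. Ion channels counted 8 up and 6 down of 27 (51.9% called, against 41.2% of all genes), or 3 up and 12 down after TPM rescaling. Kcnj2, an inward rectifier potassium channel of the kind that intracellular spermine blocks, was 9.29 and 8.002 FPKM with PBS and 2.01 and 2.18 FPKM with spermine (-1.64 ± 0.15, adjusted p = 3.2e-04). The calcium-activated potassium channel Kcnn4, the store-operated channel Orai2 and the endolysosomal channel Tpcn1 fell by 1.23 ± 0.17, fell by 1.45 ± 0.09 and fell by 1.10 ± 0.09. The proton channel Hvcn1 rose by 0.75 ± 0.07.

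**Figure D4:**
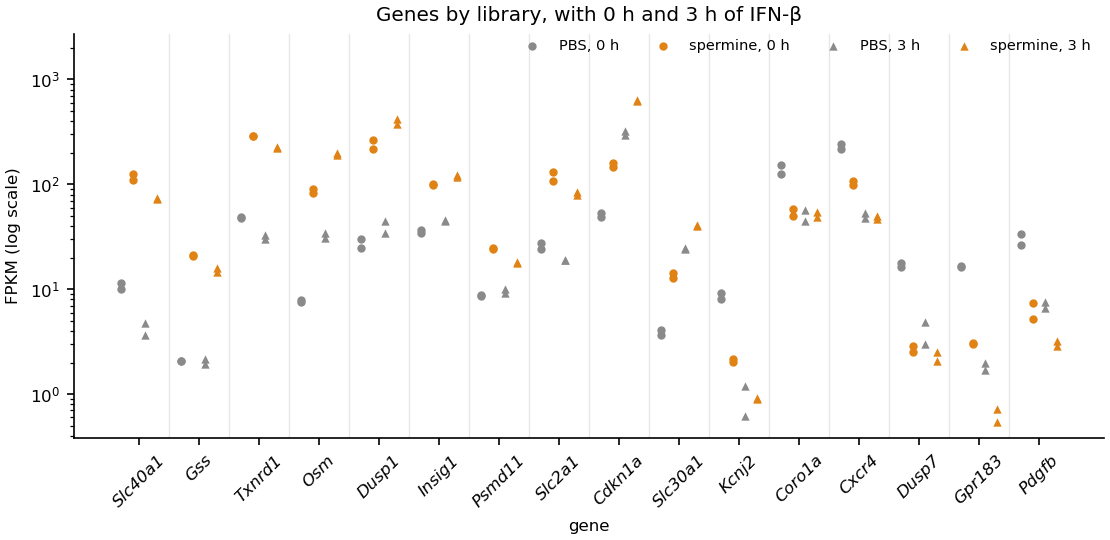
Abundance of 16 genes (vertical axis, FPKM, log scale) in each of the 8 libraries, grey for PBS and orange for spermine, circles at 0 h and triangles at 3 h of IFN-β. Slc40a1, Gss, Txnrd1, Osm, Dusp1 and Insig1 are higher with spermine at both times; Kcnj2, Coro1a, Cxcr4 and Dusp7 are high in the 2 PBS libraries at 0 h and lower in the other 6.

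Genes of the interferon pathway, which the series was set up to profile, differed before any interferon was added. Jak1, a kinase of the interferon receptors, was 30.1 and 28.5 FPKM with PBS and 37.8 and 33.4 FPKM with spermine (0.27 ± 0.08, adjusted p = 0.035), a change that turned to -0.068 (adjusted p = 0.56) after TPM rescaling, and its adjusted p ran up to 0.17 when 1 library was left out (without the first or second PBS library, the first spermine library or either spermine library at 3 h). Of 39 tested receptor, kinase and phosphatase genes 14 fell and 7 rose (3 and 22 after TPM rescaling), with 4 rising without either PBS library or the first spermine library. Ifngr1, the ligand-binding chain of the interferon-γ receptor, fell by 1.09 ± 0.11, from 54.1 and 49.5 FPKM to 26.6 and 21.1 FPKM, and the phosphatase Ptpn2 rose by 1.08 ± 0.13. In the antiviral list 21 of 38 fell and 5 rose (median -0.43; 2 and 27 after TPM rescaling). Dtx3l, a ubiquitin ligase, had the largest fall (-1.57 ± 0.09) and Oasl1, a translational brake on Irf7, rose by 0.69 ± 0.14. The rises counted 2 without the first PBS library and 3 without the first spermine library.

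Genes of growth arrest and death were mixed. Of 26 p53 target genes 12 rose and 6 fell (9 and 10 after TPM rescaling), and 3 fell without either PBS library. The polo-like kinases Plk3 and Plk2 rose by 2.40 ± 0.08 and 2.05 ± 0.06, Gadd45a by 1.89 ± 0.16 and the cyclin-dependent kinase inhibitor Cdkn1a by 1.57 ± 0.08 (48.9 and 53.1 FPKM with PBS and 147 and 159 FPKM with spermine). Phlda3 and Xpc fell by 0.96 ± 0.13 and fell by 0.50 ± 0.09. In the cell cycle list 10 of 42 fell and 4 rose (3 and 17 after TPM rescaling), and the falls and rises were 5 and 2 without either PBS library, 5 and 3 without the first spermine library and 7 and 2 without the second. The called share of the cell cycle list, 33.3%, was below the 41.2% of all genes. The death and TGF-β lists that follow had called shares of 51.6% and 57.9%. E2f2 was 9.88 and 10.9 FPKM with PBS and 3.13 and 3.65 FPKM with spermine (-1.38 ± 0.11). Death genes counted 8 up and 8 down of 31 (3 and 12 after TPM rescaling), with falls of 4 or 5 when any 1 of the 4 libraries was left out. Pycard, the inflammasome adaptor, was 4.65 and 4.73 FPKM with PBS and 1.08 and 0.883 FPKM with spermine (-1.52 ± 0.11, adjusted p = 9.4e-05), the BH3-only gene Bmf fell by 1.98 ± 0.12, and Nlrp3 rose by 0.73 ± 0.06. TGF-β receptor and Smad genes counted 5 up and 6 down of 19 (3 and 11 after TPM rescaling), with 3 up without either PBS library or the first spermine library, and the receptor Tgfbr1 at 49.1 and 48.7 FPKM with PBS and 26.7 and 22.6 FPKM with spermine (-0.96 ± 0.10).

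Small shifts of large gene families depended on scaling. The ribosomal and respiratory medians that turned sign after TPM rescaling still stood above the median of all genes there, -0.30. Called shares were 33.3% of ribosomal protein genes, 45.2% of Zfp-named genes and 31.8% of long non-coding RNAs, against 41.2% of all genes. Of 75 ribosomal protein genes, many with near-identical copies that can share reads, 25 rose and 0 fell with FPKM as deposited, but 0 rose and 5 fell after TPM rescaling and 2 rose and 2 fell after quantile normalization, and the median of 0.25 turned to -0.09. With FPKM as deposited, 13 rose without the first PBS library, 7 without the second and 14 without the second spermine library. Nuclear subunits of the respiratory complexes had 6 rises and 0 falls of 79 (0 and 18 after TPM rescaling, 1 and 7 after quantile normalization), 7.59% called and 2 rises without the second PBS library, with a median of 0.13 that turned to -0.20. Of the 13 mitochondrially encoded mRNAs 0 passed limma's test, 1 had an unadjusted p under 0.05 and 1 passed limma voom on the rebuilt reads. Where 0 members of a list fell by limma, the count at an unadjusted p under 0.05 was 1 for heat shock (1 by voom), 2 for autophagy (2 by voom), 2 for respiratory (0 by voom) and 0 for ribosomal and constitutive proteasome genes (0 by voom). Zinc finger genes named Zfp had 70 falls and 30 rises of 221 (median -0.18; 19 and 117 after TPM rescaling), with 36 falls without the first PBS library, 39 without the second and 43 without the second spermine library. Zfp395 was 9.09 and 10.0 FPKM with PBS and 1.52 and 1.196 FPKM with spermine (-2.16 ± 0.10) and Zfp703 rose by 1.91 ± 0.15. Of 469 long non-coding RNAs 67 rose and 82 fell (44 and 148 after TPM rescaling), against 42 and 48 without the first PBS library and 40 and 59 without the second. Mir22hg, the host transcript of a microRNA, was 30.4 and 30.1 FPKM with PBS and 145 and 145 FPKM with spermine (2.22 ± 0.07), and AU020206 was 68.7 and 64.3 FPKM with PBS and 17.6 and 14.7 FPKM with spermine (-1.98 ± 0.13). The sources used here do not say whether counting used strand, so reads of overlapping antisense genes cannot be told apart.

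Transcripts that went from under 1 FPKM in both PBS libraries to at least 5 FPKM in both spermine libraries numbered 12, and 0 went the opposite way. They included the cell cycle inhibitor Cdkn2b (0.283 and 0.607 FPKM with PBS and 8.21 and 9.81 FPKM with spermine), the lysophosphatidic acid receptor Lpar1 (0.499 and 0.648 FPKM with PBS and 7.18 and 6.49 FPKM with spermine), the methyltransferase cofactor Dnmt3l (0.453 and 0.432 FPKM with PBS and 5.52 and 5.48 FPKM with spermine) and Eid3 (0.335 and 0.304 FPKM with PBS and 10.5 and 9.82 FPKM with spermine). The others were Mtfr2, D16Ertd472e, Gm10252, Gm12867, Fosl1, Ptgs2 and the hairpin loci Mir212 and Mir29a, whose short length makes few reads a large FPKM value. Among protein-coding genes of the largest change, Hilpda, an inhibitor of the main triglyceride lipase, was 7.05 and 5.398 FPKM with PBS and 74.1 and 82.1 FPKM with spermine (3.46 ± 0.15), Ifrd1 rose by 3.46 ± 0.08 and the lipid phosphatase Plpp3 by 3.30 ± 0.09. At the other end, Themis2 was 25.7 and 23.8 FPKM with PBS and 4.55 and 4.95 FPKM with spermine (-2.16 ± 0.07), Hhex, a homeodomain factor, fell by 2.00 ± 0.08, Tifab fell by 2.00 ± 0.08 and Engase fell by 2.01 ± 0.14.

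The same contrast in the libraries that had received IFN-β for 3 h called 4626 genes (40.5%), 2276 up (19.9%) and 2350 down (20.6%). After TPM rescaling it called 1339 up and 3675 down. That count was 2912 without the first spermine library at 3 h. Of the 493 genes that had risen by at least 1 at 0 h, 432 (87.6%) rose again and 8 fell. Of the 257 that had fallen by at least 1, 159 (61.9%) fell again and 6 rose. Median changes went from 1.37 to 1.13 over the strong rises and from -1.19 to -0.57 over the strong falls. The test of the difference between the effects at 3 h and at 0 h called 1550 genes (13.6%), 665 with a higher and 885 with a lower value at 3 h (1005 and 492 after TPM rescaling), among them 137 of the 257 strong falls and 135 of the 493 strong rises with a smaller effect at 3 h. The number of genes with a different effect was 647 and 520 without the first and the second PBS library at 0 h, 753 without the first spermine library at 0 h, 886 without the first PBS library at 3 h, and 554 and 627 without the first and the second spermine library at 3 h. The strong rises and falls were chosen by the 0 h libraries, which also enter the difference. Their medians at 3 h and the counts of smaller effects among them are therefore a description.

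**Figure D5:**
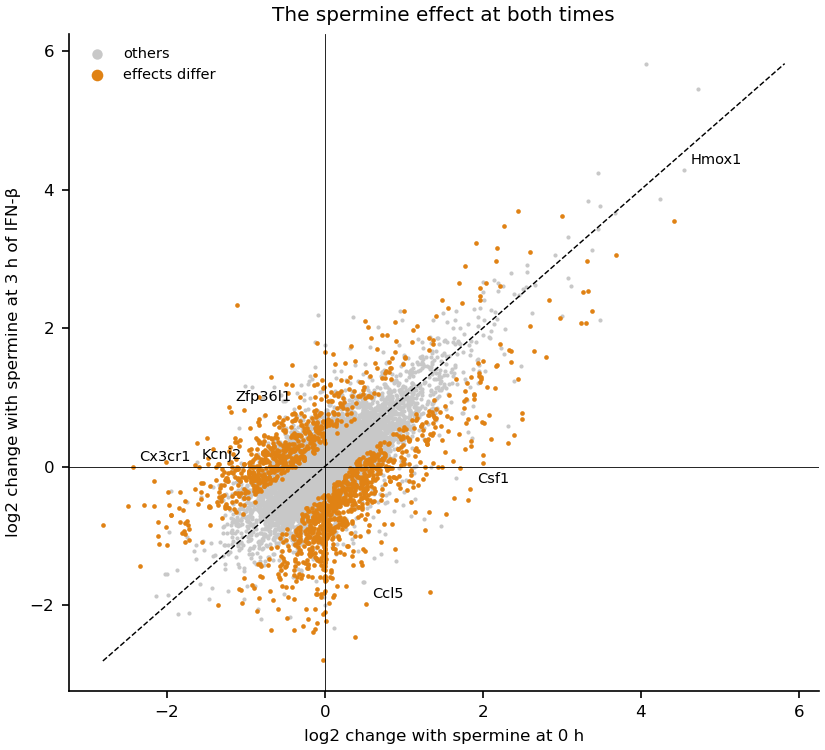
Log2 change with spermine at 3 h of IFN-β (vertical axis) against that at 0 h (horizontal axis) for the 11421 genes, both as differences of mean log2(FPKM + 1). Orange points are the 1550 genes whose effects differed by limma's test, grey points the others, and the dashed line marks equal effects; the strong falls Cx3cr1 and Kcnj2 lie near 0 on the vertical axis and Csf1 and Ccl5 below it.

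Several genes that fell at 0 h stood low in both groups at 3 h. Kcnj2 was 1.198 and 0.614 FPKM with PBS and 0.892 and 0.929 FPKM with spermine at 3 h (difference of effects 1.66 ± 0.22, adjusted p = 0.0059). Coro1a was 44.7 and 56.9 FPKM with PBS and 54.2 and 49.1 FPKM with spermine (1.38 ± 0.21, adjusted p = 0.0097, or 0.051 without the first spermine library at 3 h), and Cxcr4 was 53.3 and 47.3 FPKM with PBS and 49.8 and 46.7 FPKM with spermine (1.08 ± 0.13, adjusted p = 0.0047). For Maf, in contrast, both groups were high at 3 h, at 25.3 and 28.1 FPKM with PBS and 31.0 and 32.7 FPKM with spermine (1.67 ± 0.15, adjusted p = 0.0023). A few genes turned direction. Zfp36l1, lower with spermine at 0 h, was 4.15 and 5.03 FPKM with PBS and 9.15 and 9.09 FPKM with spermine at 3 h (0.86 ± 0.12). Csf1, the macrophage growth factor, rose at 0 h from 1.29 and 1.04 FPKM to 7.03 and 6.51 FPKM (1.84 ± 0.08) and was 32.1 and 32.2 FPKM with PBS and 24.5 and 26.4 FPKM with spermine at 3 h (-0.33 ± 0.08, adjusted p = 0.02, or from 0.051 to 0.12 without any 1 of these 4 libraries). The chemokine Ccl5 rose at 0 h by 0.52 ± 0.10 (adjusted p = 0.092 after TPM rescaling) and was 87.8 and 80.1 FPKM with PBS and 21.2 and 19.7 FPKM with spermine at 3 h (-1.98 ± 0.10). Srm and Sms, which did not pass at 0 h, were higher and lower with spermine at 3 h (0.55 ± 0.12 and -0.58 ± 0.10), where Srm had an adjusted p of 0.054 without the first PBS and 0.069 without the first spermine library at 3 h, with differences of effects of 0.68 ± 0.17 (adjusted p = 0.044) and -0.70 ± 0.15 (adjusted p = 0.026). Leaving out 1 library put these 2 differences at adjusted p of up to 0.14, above the threshold for Srm without any 1 of 7 libraries and for Sms without any 1 of 6. Without the filter on low values the adjusted p was 0.099 for Srm and 0.062 for Sms, and for Srm it was from 0.051 to 0.053 with a pseudocount of 0.1, no intensity trend, limma voom or the replicate block. Odc1, Azin1, Amd1, Sat1, Smox and Slc3a2 changed in the same direction at both times, with 3 h changes of 0.95, 0.98, -1.46, 0.51, 1.10 and 1.26. Atp13a2 was 32.0 and 44.9 FPKM with PBS and 38.0 and 38.2 FPKM with spermine at 3 h and did not pass there.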

How the data were processed

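Poly(A) RNA of bone marrow derived mouse macrophages was sequenced in 8 libraries. The submitters' processing notes name CASAVA 1.8, fastp, HISAT2 2.0.5, featureCounts 1.5.0-p3 and DESeq2 1.20.0 with the GRCm38/mm10 build, with no order or role; the sources used here say nothing of strand or of reads shared by several genes. The deposited file gives FPKM per gene as the authors made them, in 1 table of 54532 genes. Whole reads could be rebuilt for 100% of values (tolerance 0.001), 15723437 to 17744844 per library, so that depth limits low genes.

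Genes of at least 1 FPKM in at least 2 libraries were tested on log2(FPKM + 1) with limma 3.58.1 (R 4.3.3), with an intensity trend and all 4 groups in 1 model, Benjamini-Hochberg over 11421 genes and a two-sided threshold of 0.05. On this scale the fold of low genes is understated. Named genes were all tested polyamine genes and Jak1, in every other list up to 4 rising and 4 falling genes of the largest change without overlap (6 each way for long non-coding RNAs), the largest changes overall by log2 or by FPKM, the transcripts that went from under 1 to at least 5 FPKM, and the largest differences between the times; a few items are not reported here. The members and lists were chosen with earlier results of these data known, and the splits by role after values were seen. Motif searches used RefSeq windows (GRCm38.p6) of 250 bases; 8087 tested genes matched by symbol. In simulated data, with few genes changed and a spread set by hand, 9 unchanged genes were called (0.0802%). Alternatives tried were the pseudocount, the filter, TPM and quantile scaling, voom on rebuilt reads, the intensity trend, a fit of the 2 groups alone, a replicate block and leaving out each library.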

Additional observations from a re-analysis of the deposited data

Results flagged for a closer look

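The spermine effect at 3 h of IFN-β differed from that at 0 h for 1550 of the 11421 genes by limma's test of the difference itself, and for 78 of the genes named above. Values below are differences of log2 change, 3 h minus 0 h, and the call behind each is that of the test at an adjusted p under 0.05.

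Genes that had fallen at 0 h and whose value was higher at 3 h made up the first set, 40 genes. The difference was 2.08 for Zfp36l1, 2.07 for Engase, 1.96 for Zfp395, 1.73 for Dusp7, 1.67 for Maf, 1.66 for Kcnj2, 1.62 for Bmf, 1.60 for Themis2, 1.49 for Angptl4, 1.38 for Coro1a and 1.31 for Gpr183. Smaller values were 1.28 for Hpgd, 1.18 for Gpr34, 1.18 for E2f2, 1.16 for Orai2, 1.13 for Kcnn4, 1.12 for Scd2, 1.10 for Dtx3l, 1.10 for Pdgfb, 1.08 for Cxcr4, 1.07 for C5ar2 and 1.07 for Sgsh. The next were 1.07 for Ptger4, 0.98 for Plau, 0.88 for Tgfbr1, 0.87 for Phlda3, 0.86 for Tifab, 0.85 for Lpl, 0.84 for Gpr65, 0.84 for Tpcn1, 0.78 for Slc36a1, 0.77 for C5ar1 and 0.70 for Dusp6. Last came 0.69 for Ifngr1, 0.62 for P2rx7, 0.57 for Txnip, 0.54 for Nr1h3, 0.54 for Xpc, 0.51 for Gpx1 and 0.36 for Sema4d.

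Genes that had risen at 0 h and whose value was lower at 3 h made up the second set, 26 genes. Here the difference was -2.50 for Ccl5, -2.17 for Csf1, -1.98 for Lpar1, -1.81 for Cxcl3, -1.42 for Mthfd2, -1.23 for Plpp3, -1.22 for Cd274, -1.21 for Cdkn2b, -1.19 for Pfkfb3, -1.17 for Pla2g4a and -1.14 for Ptgr1. Smaller values were -1.02 for Rars, -0.93 for Psma5, -0.91 for Plk2, -0.88 for Slc30a1, -0.88 for Hspa5, -0.84 for Prdx6, -0.79 for Osm, -0.72 for Dnmt3l, -0.67 for Mafk and -0.63 for Ero1l. The next were -0.63 for Atp13a3, -0.62 for Nlrp3, -0.57 for Psmd11, -0.54 for Cdkn1a and -0.43 for Gss.

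Effects that were larger at 3 h in the direction they had at 0 h were fewer. Many of the named genes were picked for a large change at 0 h, or for a large difference between the times. The 0 h libraries also enter the difference, and this choice favours smaller effects at 3 h. The sizes of these sets are therefore a description. Among genes that had fallen, the difference was -1.06 for Tlr3, -0.69 for Itga4 and -0.62 for Ctsc. Among genes that had risen, it was 1.31 for Zfp703, 1.25 for Mafg, 1.12 for Tob1, 0.53 for Zfp36, 0.42 for Ticam1 and 0.39 for Mir22hg. Of genes without a call at 0 h, the difference was -0.70 for Sms, -0.69 for Psmb10 and 0.68 for Srm.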

How the results depend on the processing

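Counts of genes were the results that moved most. Rescaling to TPM gave 1187 genes higher and 4743 lower with spermine at 0 h, and an FPKM minimum of 5 gave 1320 lower among fewer genes tested. Leaving out 1 library at a time gave 2999 to 4897 genes changed at 0 h, 1674 to 2616 higher, 1325 to 2281 lower, 2912 to 4645 changed at 3 h and 520 to 1671 with a different effect. Other settings kept those of the 5 counts they gave within 1.5 times: pseudocounts of 0.1 and 0.5, no filter, no intensity trend, only the 2 groups at 0 h, quantile normalization and limma voom on reads rebuilt from FPKM.

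Among the 197 changes printed above for named genes, pseudocounts of 0.1 and 0.5 kept 197 in direction and call, voom 196 and TPM rescaling 182. Direction turned under TPM rescaling for Arg1 (-0.031), Dhps (-0.22), Dohh (-0.22), Eif5a (-0.076), Jak1 (-0.068) and Sms (-0.19), and under quantile normalization for Eif5a (-0.071) and Ftl1 (-0.020). It turned for Arg1 without the first spermine library at 0 h, with a range of -0.12 to 0.35 over libraries left out, and for Dohh without the first PBS library (-0.13) or the second spermine library, with a range of -0.47 to 0.67. TPM rescaling by construction shifts all genes of a library together (a median of -0.34). For the others the cause was not tested.

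With the replicate number as a block (replicate block), 4996 genes passed at 0 h, 2665 higher and 2331 lower, 4978 at 3 h and 1813 for the difference, and 2 of the 197 named changes gained a call (Eif5a and Mtap), while the difference of effects of Srm lost its call (adjusted p = 0.053). The titles carry BM1 or BM2 in each of the 4 groups, and the labels do not say what that number marks. Deviations of same-numbered libraries correlated at 0.246 between PBS and spermine at 0 h. They correlated at 0.229 between PBS at 0 h and at 3 h, and at 0.371 between PBS at 3 h and spermine at 0 h. The 3 pairs that include spermine at 3 h gave -0.061 with PBS at 0 h, -0.089 with PBS at 3 h and -0.126 with spermine at 0 h. The main fit did not take the numbers to pair the samples, and the data do not settle whether they do.

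Simulated data had the same library sizes and the PBS means at 0 h for all libraries, with a spread set by hand and not fitted. Only 50 genes at each fold were changed, in the spermine libraries at 0 h. Of these, 24 of 50 changed by 1.5-fold were called, 45 of 50 changed by 2-fold, and all 50 changed by 4-fold or 8-fold. In the real data 41.2% of genes were called, so the adjusted threshold fell elsewhere and these shares do not carry over. With 2 libraries per group, a gene without a call is not shown to be unaltered.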
